A study of Mus musculus with 8 samples.

Results

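The 5hmC content of neural precursor cells (NPCs) with a knockdown of *Tet3* was estimated from the 4 shTet3 libraries of an oxRRBS experiment, of 8 libraries in all. Each DNA was sequenced in 2 ways. Bisulphite treatment alone (BS) leaves 5mC as well as 5hmC to be read as C. When 5hmC is first oxidised (oxBS), it is read as T and 5mC alone remains as C. BS minus oxBS at a CpG is therefore an estimate of its 5hmC, and since 5hmC cannot place BS below oxBS, the negative values give the noise of the estimate. A CpG was used if it had 10 or more calls in every one of the 4 shTet3 libraries, which left 687393 CpGs of the 757812 listed for the series.

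The cells were NPCs derived by retinoic acid treatment of cellular aggregates from A2lox.cre mouse ES cells, a male line of the E14 lineage (strain 129P2/OlaHsd) that had been grown on feeder cells. Clones carried a doxycycline-inducible shRNA, against *Tet3* (shTet3) or with no target (shScr), and all of them received doxycycline at 2 µg/ml for 5 days, controls included. Each shRNA had 2 replicates, and a BS and an oxBS library were made from the same 100 ng of DNA. The labels do not say whether the 2 replicates were separate differentiations, so the spread between them may be technical.

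TET enzymes oxidise 5mC to 5hmC, which can be oxidised further and removed by base excision repair or lost through cell division. 5hmC is abundant in neurons and in ES cells, where it lies mostly in gene bodies and at enhancers rather than in unmethylated CpG islands. RRBS reads the ends of MspI fragments, so that promoters and CpG islands make up much of what is covered.

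The hairpin that the study's legend names for these cells, Tet3-2, is shown because it defines the knockdown, although the labels name the shRNA by its target alone. Capitals mark the 22 bases that are antisense to the *Tet3* mRNA, which match chr6:83319640-83319661 of the mouse genome build mm9, in a coding exon of *Tet3* (ENSMUSG00000034832, chr6:83312367-83391672, minus strand).
Tet3-2 hairpin: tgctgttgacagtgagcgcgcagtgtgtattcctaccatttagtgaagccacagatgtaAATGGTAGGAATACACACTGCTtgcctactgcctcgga

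The 5 called CpGs with the largest positive and the 3 with the largest negative difference, among those with one sign in both pairs on the chromosomes considered, are printed from mm9, forward strand, 5′ to 3′, with 30 bases on either side and the measured CpG in capitals. They are named by the nearest start site of a protein-coding gene. In the first 5 BS lay above oxBS, the direction 5hmC gives.
*Slc22a12*, chr19:6608264-6608325: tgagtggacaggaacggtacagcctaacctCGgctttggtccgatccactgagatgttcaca
*Kcnk18*, chr19:59314043-59314104: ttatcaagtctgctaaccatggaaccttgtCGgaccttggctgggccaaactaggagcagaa
*Gramd2*, chr9:59573336-59573397: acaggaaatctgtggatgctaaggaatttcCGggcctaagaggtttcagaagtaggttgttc
*Dalrd3*, chr9:108471427-108471488: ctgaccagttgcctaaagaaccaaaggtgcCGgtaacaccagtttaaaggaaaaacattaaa
*Zfp423*, chr8:90304339-90304400: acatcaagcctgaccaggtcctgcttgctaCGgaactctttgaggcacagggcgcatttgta
In the other 3 BS lay below oxBS, a direction that 5hmC cannot give.
*Scand1*, chr2:156163259-156163320: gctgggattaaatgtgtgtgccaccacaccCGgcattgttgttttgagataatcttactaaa
*Clmn*, chr12:106091612-106091673: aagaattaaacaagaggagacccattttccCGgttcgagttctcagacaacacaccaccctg
*Klhl8*, chr5:104337900-104337961: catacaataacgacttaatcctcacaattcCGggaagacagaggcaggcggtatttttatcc
Sites of both directions were thus found at differences of similar size, and CCGG, the site cut by MspI, held the CpG in 2 of the first 5 and in all of the other 3. Over all called CpGs, CCGG held 33.5% of those with BS above oxBS and 30.9% of those with BS below. Its share of all CpGs tested was 24.04%. The contrast among the printed sites was thus not seen over all calls.

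Over all kept CpGs, BS was slightly above oxBS in both pairs. The mean methylation level was 22.3% in BS replicate 1, 22.6% in BS replicate 2, 22.0% in oxBS replicate 1 and 22.3% in oxBS replicate 2. Both BS libraries were thus above both oxBS libraries, but BS replicate 1 (22.295%) was closer to oxBS replicate 2 (22.253%) than to BS replicate 2. BS minus oxBS was 0.281 percentage points in pair 1 and 0.334 in pair 2, with a mean of 0.307 ± 0.0376 points (SD, n = 2 pairs). With 4 libraries the two-sided exact permutation test gave p = 0.333, the smallest it can give, and the exact sign-flip test of the pairs gave p = 0.5, also its smallest. Depth ranged from 42516767 to 51895064 calls per library, and the median coverage of the kept CpGs from 48 to 59.

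The mean hid a wide spread around 0. In pair 1 BS was above oxBS at 30.6% of the CpGs, below at 28.9% and equal at 40.5%. In pair 2 the shares were 31.9%, 29.2% and 38.9%. The central 95% of the differences ran from -23.0 to 24.2 points in pair 1 and from -18.2 to 19.7 points in pair 2, so the spread was many times the mean. The differences of the pairs were nearly unrelated across CpGs (Pearson's r = 0.00522 over 687393 CpGs, which share libraries and fragments), and over 60166 windows of 1 kb the value was 0.00658. At CpGs with a level between 20% and 80% the squared difference, in units of its counting variance, averaged 2.20 in pair 1 and 1.35 in pair 2, where counting error alone gives 1. Pair 1 thus exceeded counting error by more than pair 2.

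**Figure D1:**
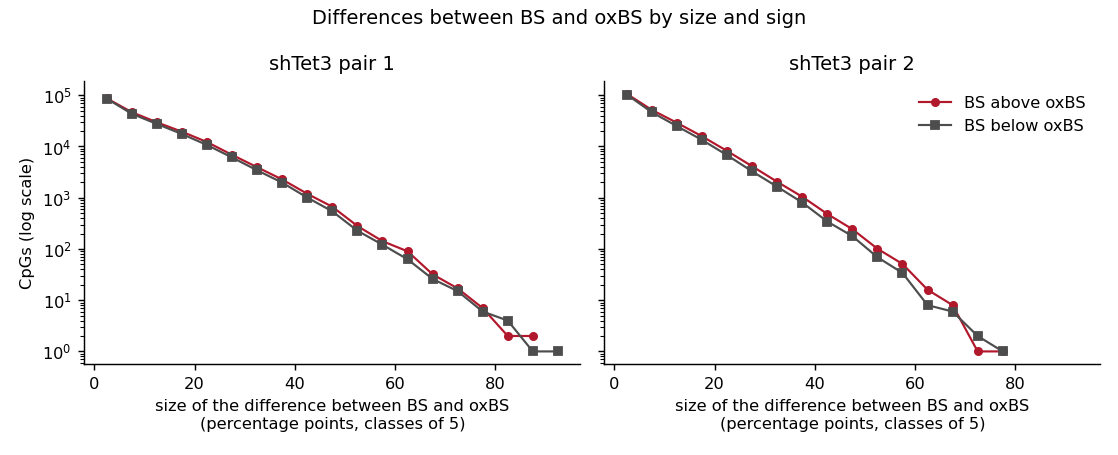
Number of CpGs (log scale) by the size of the difference between BS and oxBS in percentage points, in classes of 5, for shTet3 pair 1 and pair 2. Circles are CpGs with BS above oxBS and squares those with BS below. Both curves fall together over the whole range, with the circles slightly above the squares in most classes.

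Demanding the same direction in both pairs left a modest excess of positive CpGs. Both pairs exceeded 10 points at 15709 CpGs in the positive and at 12355 in the negative direction, a ratio of 1.27. Beyond 20 points the counts were 2086 and 1427, and beyond 30 points 220 and 136, with a ratio of 1.62. Beyond 40 points, 18 CpGs were positive and 13 negative. Positive CpGs thus outnumbered negative ones at each of these sizes, but never by more than 1.62 to 1.

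Single CpGs were then called by a likelihood ratio test on the methylated and unmethylated calls of the 4 libraries, at a q value below 0.01 (Benjamini-Hochberg over all 687393 CpGs) and a pooled difference over 10 points. BS was above oxBS at 164 CpGs (0.0239% of those tested) and below at 97 (0.0141%), so the calls in the direction that 5hmC cannot give were 59.1% as many as those in the other. Both pairs had the sign of the call at 159 and 91 of them. The order changed when 1 library was left out, which breaks the pairing: without oxBS replicate 1 there were 89 above and 155 below. With all libraries and the replicate number as a block, there were 156 above and 84 below. Leaving out BS replicate 2 gave 1158 and 1092, leaving out oxBS replicate 2 1737 and 1061, and leaving out BS replicate 1 207 and 52. This test treats replicate libraries as one pool. With a test that takes its error from the spread between replicates (F test with the Pearson dispersion), no CpG passed in either direction. With 4 libraries it has so few degrees of freedom that it could hardly reach this q value over so many CpGs. Its lack of calls therefore decides nothing. At an unadjusted p under 0.05 in that test and the same 10 points, 97 CpGs lay above and 45 below. The median pooled difference of the called CpGs was 26.6 points above and -29.5 points below. At CpGs of intermediate level (20% to 80%) the counting error of a pooled difference was 7.07 points, so 5hmC of a few points could not be detected at a single CpG at this depth.

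The called CpGs of both directions lay mostly outside promoters. Of the 164 above, 62 were intergenic, 46 intronic, 30 in promoters (1 kb before to 0.5 kb after a start site of a protein-coding gene) and 26 in exons outside promoters. Of the 97 below, 37 were intronic, 29 intergenic, 24 exonic and 7 in promoters. Promoters held 18.3% of the first and 7.22% of the second, against 48.4% of all CpGs tested. The mean level of promoter CpGs was 3.89% in BS replicate 1. Among CpGs with a mean level of 60% to 90% in the shScr libraries, 0.0923% of promoter CpGs were called above and 0.0396% below. The shares were 0.0579% and 0.0331% in introns, 0.0577% and 0.02796% between genes, and 0.0425% and 0.0516% in exons. At a like level promoters thus did not have the lowest share in either direction. The median number of CpGs within 250 bases on either side was 13 for both sets and 33 for all CpGs. In the densest class, with 30 or more, lay 25 of those above and 9 of those below. These were 0.00666% and 0.00240% of its 375369 CpGs, against 0.0239% and 0.0141% of all CpGs tested. Its mean level was 3.36% in BS replicate 1. The difference between the sets in their share of promoters was not tested.

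The calls were looked for in data that had not made them. Pair 1 taken alone gave 1025 CpGs above (0.149%) and 795 below (0.116%), and pair 2 alone gave 0 of each (0% of those tested). At the 1025 CpGs that were above in pair 1, pair 2 had a mean difference of 0.723 points and was positive at 56.0%. At the 795 CpGs that were below in pair 1, pair 2 had a mean of 0.795 points and was positive at 52.1%. The second pair thus gave nearly the same small positive mean whichever way the first had pointed, against 0.334 points over all CpGs. In shScr, 157 of the 164 CpGs above were covered, with a mean BS minus oxBS of 0.988 points, and 92 of the 97 below, with a mean of 2.91 points. Of each set, 2 CpGs were called above in shScr and 0 below, where 2049 of all 612975 CpGs were called above and 1043 below.

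Single CpGs were named outside chromosome 18, which held 8 of the CpGs called above and 6 of those below. These were 0.0396% and 0.0297% of its 20210 CpGs, against 0.0239% and 0.0141% of all CpGs tested. The largest positive difference among those considered was at chr19:6608294, between genes and 65275 bases upstream of *Slc22a12*, a urate transporter gene of the kidney. Its level was 88.2% in BS replicate 1 (17 calls, 95% Wilson interval 65.7% to 96.7%), 90.9% in BS replicate 2 (11 calls), 36.1% in oxBS replicate 1 (36 calls, 22.5% to 52.4%) and 31.0% in oxBS replicate 2 (29 calls). Both BS libraries were far above both oxBS libraries, and 2 further CpGs within 100 bases averaged 32.7 points in pair 1 and 41.2 in pair 2. In shScr the same CpG went the other way, with -28.8 points in pair 1 and -21.7 in pair 2. The Wilson intervals of the 8 CpGs in the 4 libraries were between 13.0 and 51.9 points wide, and they cover counting error only, since PCR copies cannot be told from separate molecules.

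The CpG at chr19:59314073, between genes and 19935 bases downstream of the start of the potassium channel gene *Kcnk18*, had levels of 54.5% and 66.7% in BS and of 11.8% and 0% in oxBS. The 0 came from 18 calls, where a floor of 3 calls is 16.7% and the upper limit of the 95% Wilson interval 17.6%. At chr9:59573366, between genes near *Gramd2*, the levels were 71.4% and 30.8% in BS and 5.56% and 0% in oxBS, where for 0 of 22 calls the floor is 13.6% and the Wilson limit 14.9%. All 4 BS values exceeded all 4 oxBS values at these CpGs, but 2 neighbouring CpGs of the *Gramd2* site averaged -4.60 and -7.27 points in the pairs. The CpG at chr9:108471457 lay in the promoter of *Dalrd3*, 766 bases before its start, with levels of 86.2% and 60% in BS and 36.7% and 18.8% in oxBS. The CpG at chr8:90304369, in a coding exon of *Zfp423*, which encodes a zinc finger transcription factor of neural and adipocyte precursors, had 97.4% and 76.2% in BS and 42.1% and 59.3% in oxBS. Its difference was 55.3 points in pair 1 and 16.9 in pair 2, and the kinds did not overlap at either CpG.

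The 3 named CpGs with negative differences had pooled values between -47.5 and -52.1 points. At chr2:156163289, in an intron of *4921517L17Rik*, the levels were 16.7% and 50% in BS and 73.1% and 87.5% in oxBS. At chr12:106091642, in an intron of *Clmn*, they were 15% and 19.2% in BS and 62.5% and 82.4% in oxBS. At chr5:104337930, in an intron of *Klhl8*, they were 20% and 31.2% in BS and 75.9% and 52.9% in oxBS. BS and oxBS did not overlap at any of the 3, although no 5hmC content can produce this order. CpGs within 100 bases did not share the sign in both pairs at any of them. They averaged 11.3 and 25.04 points at *Clmn* (2 CpGs), and the single neighbours had 4.79 and 3.53 points at *4921517L17Rik* and -7.24 and 10.2 points at *Klhl8*. At *Zfp423*, in contrast, the 2 neighbours averaged 10.47 and 22.2 points, the sign of the site.

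Summing the calls of a window of 1 kb lowered the counting error to 3.30 points at intermediate levels. Of 60166 windows with at least 3 CpGs, 1244 (2.07%) were called above and 839 (1.39%) below by the same test and thresholds. The calls below were 67.4% as many as those above, so summing gave more calls but no better separation from the noise. Both pairs had the sign of the call in 1136 and 744 windows. Calls of neighbouring CpGs on one read are not independent. With the F test, which takes its error from the replicates, no window passed in either direction. Its few degrees of freedom could hardly give a q value this low over so many windows, so this decides nothing. At an unadjusted p under 0.05 in that test and the same threshold for the pooled difference, 87 windows lay above and 40 below. Windows over promoters were 8.92% of those above and 5.72% of those below, against 31.9% of all windows. The part of the methylation level in these shares was not tested.

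Windows called in 1 pair had small differences in the other. The 2453 windows above in pair 1 alone had a mean of 0.858 points in pair 2, and the 476 above in pair 2 alone had 0.797 points in pair 1. For windows called below, the mean of the other pair was 0.607 points from pair 1 to pair 2 and 0.785 points in the reverse direction. All 4 means were small and positive. In shScr, windows were called above at 2.55% and below at 1.39% of 56079. Of 1144 windows above in shTet3 that were also tested in shScr, 61 were called above there and 24 below. Of 748 windows below in shTet3, 32 were called above in shScr and 22 below. Over all 54493 windows tested in both, the shScr calls were 1384 above and 741 below.

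**Figure D2:**
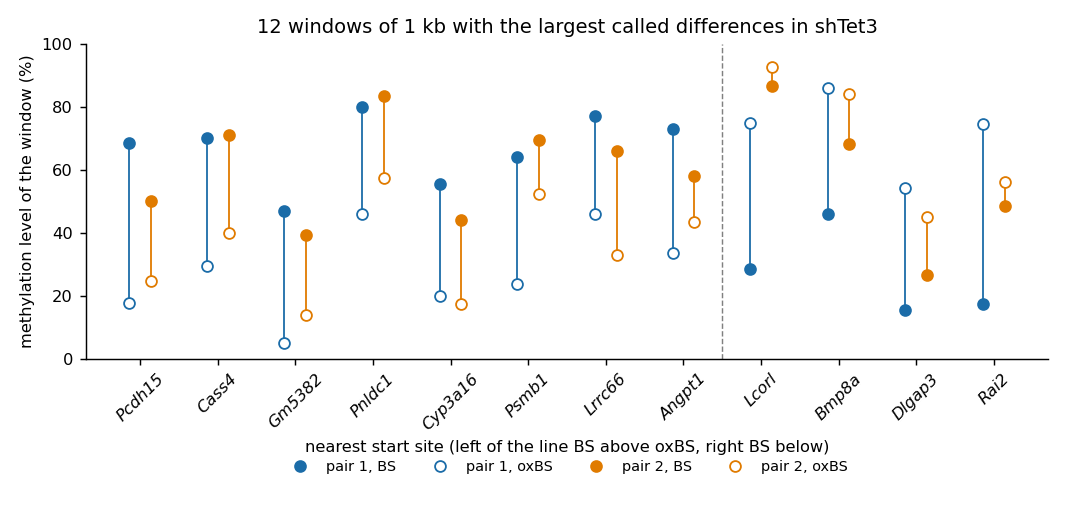
Methylation level (%) of the 12 named windows in the 4 shTet3 libraries, with filled circles for BS and open circles for oxBS, and a line joining the libraries of a pair. To the left of the dashed line BS is above oxBS in both pairs, to the right BS is below oxBS in both pairs, and pair 1 has the wider gap in most windows.

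The 8 windows with the largest positive differences were chosen for their size, and their values are a description. In a window at chr10:73141001-73142000, in an intron of *Pcdh15*, a protocadherin gene of sensory hair cells, BS gave 68.4% and 50% and oxBS 17.5% and 24.6%. A window in a coding exon of *Cass4*, a focal adhesion scaffold gene (chr2:172241001-172242000), had 70.2% and 71.0% in BS and 29.5% and 40% in oxBS. A window in a coding exon of *Lrrc66* (chr5:73999001-74000000) had 77.2% and 66.1% in BS and 46.0% and 33.0% in oxBS. In these 3 windows both BS libraries were above both oxBS libraries. The other 5 lay in introns of *Pnldc1*, which encodes a nuclease that trims piRNAs, and of the angiopoietin gene *Angpt1*, and between genes nearest to *Gm5382*, *Cyp3a16* and *Psmb1*. Their pooled differences were between 28.6 and 32.3 points, and in each of the 8 windows every BS library exceeded every oxBS library. They rested on 3 or 4 CpGs each.

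The 4 windows with the largest negative differences lay in an intron of *Lcorl* (-36.5 points), in an intron of *Macf1* (-30.6 points), in a coding exon of *Dlgap3* (-29.7 points) and in a coding exon of *Rai2* (-28.6 points). *Macf1* encodes a linker of microtubules and actin, and *Dlgap3* a scaffold of the postsynaptic density. In the *Dlgap3* window, at chr4:126872001-126873000, BS gave 15.3% and 26.7% and oxBS 54.3% and 44.9%. In the 4 windows pair 1 ranged from -57.2 to -39.0 points and pair 2 from -18.2 to -6.11 points. The negative windows were thus set mainly by pair 1.

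**Figure D3:**
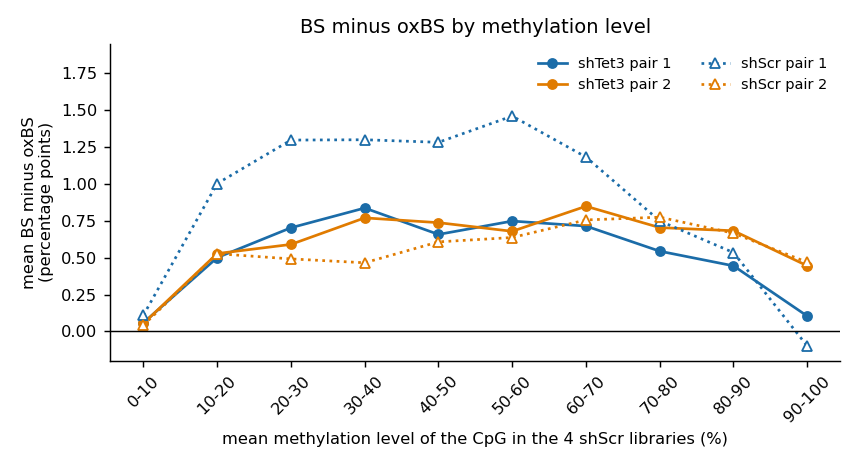
Mean BS minus oxBS (percentage points) of CpGs grouped by their mean level in the 4 shScr libraries, which do not enter the shTet3 differences. Filled circles are the shTet3 pairs and open triangles the shScr pairs. All shTet3 means are above 0, near 0 in the lowest class and between 0.104 and 0.849 points in the others.

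Although single sites were not separated from noise, means over many CpGs behaved alike in the pairs. With CpGs grouped by their level in the shScr libraries, the mean difference was 0.0583 points in pair 1 and 0.0536 in pair 2 for levels under 10%, where the shTet3 BS level itself was under 1%. It was 0.837 and 0.770 points for levels of 30% to 40%, and 0.714 and 0.849 points for 60% to 70%. For levels of 90% or more it was 0.104 and 0.445 points. Both pairs were positive in all 10 classes, with the lowest values at the unmethylated end and intermediate levels giving the highest. The shScr pairs ran from 1.30 and 0.465 points at 30% to 40% to -0.0996 and 0.469 points at 90% or more, so the 2 shScr pairs differed from each other more than the shTet3 pairs did in the first of these classes.

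**Figure D4:**
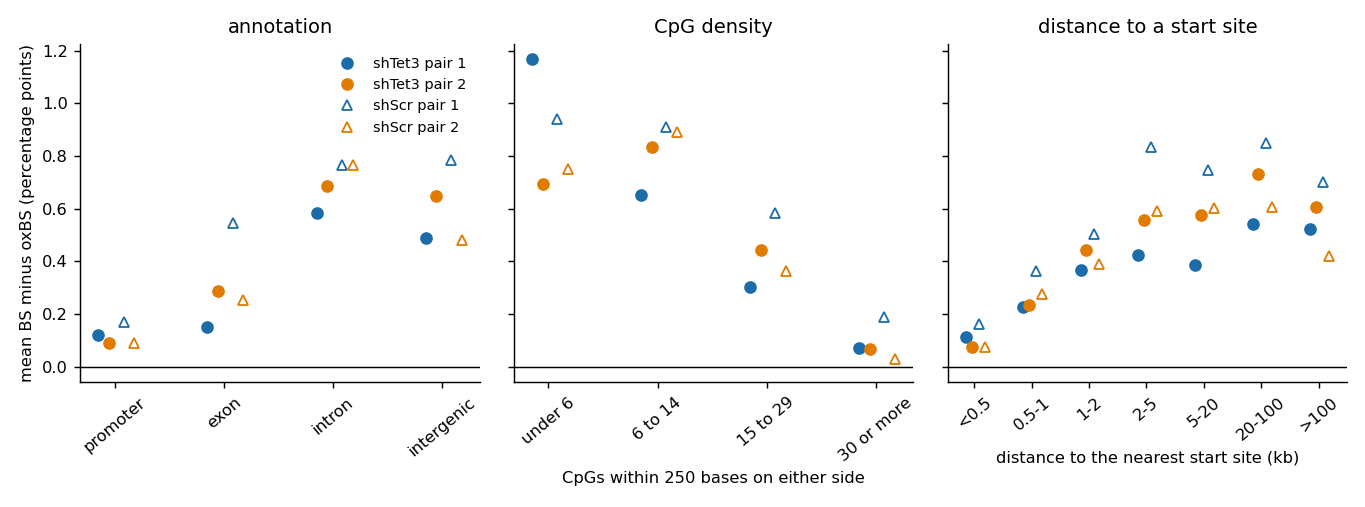
Mean BS minus oxBS (percentage points) by annotation, by the number of CpGs within 250 bases on either side, and by distance to the nearest start site in kb. Filled circles are shTet3 pairs and open triangles shScr pairs. In both shTet3 pairs promoters and dense CpGs are lowest, and introns and sparse CpGs are higher.

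By annotation, promoters had the lowest estimate. Over 332369 promoter CpGs, whose level was 3.89% and 3.99% in the BS libraries, the difference was 0.121 points in pair 1 and 0.0889 in pair 2. Exons outside promoters had 0.152 and 0.285 points, introns 0.583 and 0.684, and intergenic CpGs 0.488 and 0.648. Introns were thus the highest class in each pair. Among CpGs with an shScr level of 60% to 90%, introns had 0.807 and 0.923 points, intergenic CpGs 0.568 and 0.814, promoters 0.669 and 0.552, and exons 0.117 and 0.359. At a like level the promoters were therefore no longer lowest, and exons were lowest in both pairs. The differences between classes were not tested.

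The estimate followed CpG density and distance in the same way. It was 1.17 and 0.693 points where fewer than 6 CpGs lay within 250 bases, 0.653 and 0.832 for 6 to 14, 0.303 and 0.443 for 15 to 29, and 0.0698 and 0.0650 for 30 or more. Within 0.5 kb of a start site it was 0.113 and 0.0747 points, and between 20 and 100 kb it was 0.542 and 0.731. Beyond 100 kb it was 0.523 and 0.607 points. Sparse CpGs and those far from start sites thus had higher estimates than dense or near ones, though not in steady steps. The methylation level differed too. In BS replicate 1 it was 48.0% with fewer than 6 CpGs within 250 bases and 3.36% with 30 or more. The part of the level in these trends was not tested. CpGs within CCGG had 0.789 points in pair 1 and 0.482 in pair 2, and all other CpGs 0.120 and 0.287. CCGG is the site at which MspI cuts, and its part in the mean was not tested.

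The pooled level moved with read weight. Counting every call equally gave 1.59 points in pair 1 and -0.789 in pair 2, with levels of 19.4% and 19.01% in BS and 17.8% and 19.8% in oxBS. The negative value in pair 2 appeared in each class of coverage, with -1.56 points at CpGs with under 100 calls in the 4 libraries and -1.80 points at the 538 CpGs with 2000 or more. The class that held the most calls (58.1%) gave -0.887 points. The positive mean of pair 2 thus held for the average over CpGs and not for the average over calls. In shScr the same weighting gave 0.425 points in pair 1 and -1.92 in pair 2, so the second pair was negative with both shRNAs. Why the weighting changes the sign was not tested.

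Against shScr, the estimate was measured in the same way at the 612975 CpGs covered in all 8 libraries. It was 0.279 and 0.332 points in shTet3 and 0.449 and 0.308 points in shScr, so that the groups overlapped. The means were 0.305 ± 0.0373 points and 0.379 ± 0.0996 points (SD, n = 2 pairs each), and shTet3 minus shScr was -0.0734 points (two-sided exact permutation test, p = 0.667, where the smallest p is 0.333). The mean level of the shScr libraries was between 26.4% and 31.7%, above that of the shTet3 libraries, and its part in the comparison was not tested. A lower 5hmC content in shTet3 was not detectable with 2 pairs against 2. In shScr the same call rule gave 2086 CpGs above (0.33% of 632977) and 1076 below (0.17%). shTet3 had fewer called CpGs in both directions, whereas among windows the share below was 1.39% in both and the share above 2.07% against 2.55%. The number of CpGs called below was 51.6% of that above in shScr. The mean squared difference in units of counting variance, 2.84 and 1.68 in the shScr pairs, was also larger there, and its part in the number of calls was not tested.

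*Tet3* itself, whose mRNA is the target of the shRNA, was covered at 76 CpGs. DNA methylation does not show the knockdown, since the hairpin acts on the mRNA. The mean level was 55.7% and 60.7% in BS and 58.5% and 63.4% in oxBS, so BS was below oxBS by 2.78 points in pair 1 (-2.78) and by 2.71 points in pair 2 (-2.71). At the 15 CpGs around the start site all libraries were between 0.690% and 1.09%. At the other 61 CpGs the difference was -3.53 and -3.27 points, with both pairs negative at 22 CpGs and both positive at 14. The estimate for *Tet3* was therefore on the side that 5hmC cannot give. Of its 8 windows, 1 was called, at chr6:83352001-83353000 across a coding exon and intron. It had 44.9% and 65.2% in BS and 74.1% and 83.7% in oxBS. The likelihood ratio test gave q = 3.56e-06, and the F test with the Pearson dispersion an unadjusted p = 0.113. The window's CpGs at 83352648, 83352661 and 83352670 had 21 calls each in BS replicate 1, so their calls may share reads. No single CpG of *Tet3* passed the q value.

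**Figure D5:**
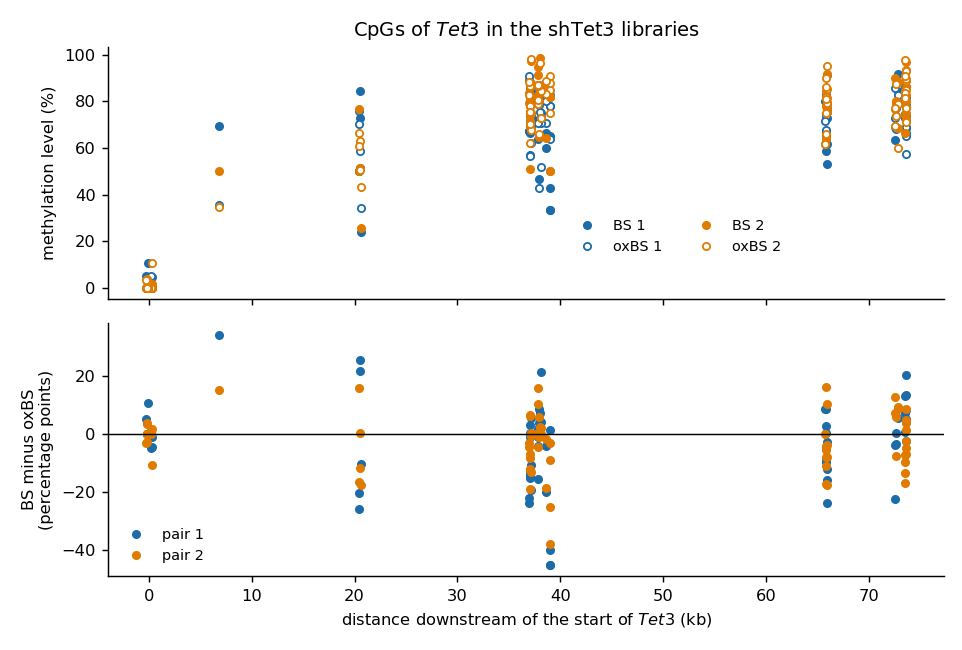
Upper panel, methylation level (%) of the 76 CpGs of *Tet3* in the 4 shTet3 libraries (filled for BS, open for oxBS). Lower panel, BS minus oxBS in each pair (percentage points). The x axis is the distance downstream of the gene's start in kb. CpGs at the start are unmethylated, the rest of the gene is methylated, and the differences spread on both sides of 0.

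All 22 genes of the list for DNA methylation and demethylation, *Tet3* included, had covered CpGs. *Tet1* had 13.7% and 16.2% in BS and 13.8% and 16.4% in oxBS over 61 CpGs. *Tet2* had a difference of 1.26 and 0.375 points over 51 CpGs. The maintenance methyltransferase gene *Dnmt1* had 0.0592 and -0.264 points, the de novo gene *Dnmt3a* -0.864 and -0.455, and *Tdg*, the glycosylase that removes oxidised forms of 5mC, was unmethylated at its 32 CpGs (0.137% or less in each library). Of the 82 windows of these genes, 0 were called above and 2 below (2.44%), against 1.64% and 1.11% of the 42403 windows of protein-coding genes. Besides *Tet3*, the window called below was in a coding exon of *Cxxc5*, with 43.0% and 77.3% in BS and 71.6% and 74.6% in oxBS, so only pair 1 (-28.6 points) carried it. *Cxxc5* encodes a CpG-binding protein. The median difference over the 18 genes with at least 20 CpGs was 0.257 points, against 0.0720 points over 10244 protein-coding genes.

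Of the pluripotency genes, 19 of 23 had covered CpGs, and 1 of their 54 windows was called above (1.85%) and 0 below. Over the windows of all protein-coding genes the shares were 1.64% above and 1.11% below. The called window lay at the promoter of *Zfp42*, the gene of the ES cell marker REX1. Its levels were 44.3% and 44.1% in BS and 33.1% and 29.3% in oxBS. Its pairs gave 11.2 and 14.8 points, and the shScr pairs 0.244 and 13.96 points. *Esrrb*, an orphan nuclear receptor gene of the pluripotency network, had 0.984 and 1.28 points. *Tcl1* had 0.303 and 0.155 points over 9 CpGs, and neither gene had a called window. The mean of *Tcl1* joined parts of opposite sign. Its 3 promoter CpGs had -10.1 and -9.38 points, and its other 6 CpGs 5.51 and 4.92 points. At the promoter of *Pou5f1*, which encodes OCT4, the levels were 37.2% and 38.4% in BS and 35.4% and 39.5% in oxBS over 9 CpGs. *Nanog* had no kept CpG. *Zfp42* and *Pou5f1* were thus partly methylated in all libraries, with BS and oxBS overlapping at *Pou5f1*.

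Of the neural progenitor genes, 23 of 24 had covered CpGs, and 0 of 88 windows were called in either direction. Of the windows of all protein-coding genes, 1.64% were called above and 1.11% below. The median over the 22 genes with at least 20 CpGs was 0.128 points. Among these, *Otx2*, a homeobox gene of the anterior brain, had the highest mean with 2.08 and 5.74 points over 20 CpGs, and *Neurog1*, a proneural gene, the lowest with -2.21 and -0.256 points over 26 CpGs. The promoter of *Nes*, which encodes the progenitor filament nestin, was at 4.42% and 4.10% in BS and 2.87% and 4.76% in oxBS, and that of *Pax6* at 28.03% and 25.3% in BS and 28.1% and 27.6% in oxBS. *Sox1* and *Fabp7* had no kept promoter CpG. The levels give no measure of expression, so the identity of the cells was not tested by them.

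The genes of neuronal differentiation and the synapse, the list with the most windows, had 7 called above (3.54%) and 3 below (1.52%) of 198, against 1.64% and 1.11% over all protein-coding genes. In *Robo1*, an axon guidance receptor gene, a window in an intron had 83.6% and 75.2% in BS and 56.0% and 59.8% in oxBS. In *Grin2b*, an NMDA receptor subunit gene, an intronic window had 54.6% and 55.3% in BS and 43.4% and 37.2% in oxBS. In both windows every BS library exceeded every oxBS library. Over all covered CpGs of each gene BS and oxBS overlapped. *Robo1* had -2.05 and 1.80 points over 60 CpGs, and *Grin2b* 1.40 and 2.53 points over 76. *Rbfox3*, the gene of the neuronal marker NeuN, had 2 intronic windows above, with 12.5 and 12.7 points in one and 19.8 and 5.74 in the other. *Gad1*, which encodes a GABA-synthesising enzyme, had a coding exon window above (22.0 and 9.17 points) and an intronic window below (-4.80 and -18.5 points). The remaining windows above were at the promoter of the synaptic vesicle gene *Syp* (12.2 and 8.40 points) and in a coding exon of *Epha4*, where pair 2 was at -1.11 points. Those below were at the promoter of the glutamate transporter gene *Slc17a7* (-12.4 and -6.15 points) and in an intron of *Ephb2* (-18.96 and -3.57 points). Both directions thus occurred within one gene family and within *Gad1*. Over the 23 genes with at least 20 CpGs, 8 were positive in both pairs (34.8%) and 4 negative in both (17.4%), against 30.9% and 20.1% of all genes.

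Imprinted genes, which carry methylation on one parental allele, had 3 windows above (4.35%) and 0 below of 69, in *Igf2r* (10.2 and 9.83 points), *Peg3* (23.1 and 11.2 points) and *Grb10* (15.2 and 0.0369 points). In the *Grb10* window of 16 CpGs, BS had 42.4% and 41.3% and oxBS 27.2% and 41.3%, so that only pair 1 moved. The shares over all protein-coding genes were 1.64% above and 1.11% below. The median over the 15 genes with at least 20 CpGs was -1.16 points, the opposite sign to the windows. Of these genes, 3 (20%) were positive and 5 (33.3%) negative in both pairs, against 30.9% and 20.1% of all genes. *Zrsr1* had -5.21 and -0.622 points over 50 CpGs, *Peg10* -4.75 and 1.77 points over 29 and *Mcts2* -2.70 and 3.32 points over 26. None of these 3 had a called window.

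The remaining genes that the study names for a methylation change gave 1 called window, below, of the 100 of that whole list (1%). Over the windows of all protein-coding genes the shares were 1.11% below and 1.64% above. The called window lay across a coding exon and intron of *Runx1*, a transcription factor gene of blood and neural development. Its levels were 51.7% and 69.4% in BS and 75.4% and 70.8% in oxBS. The axon guidance gene *Slit1* had -0.0588 and 1.69 points over 127 CpGs, the growth factor receptor gene *Fgfr1* 2.13 and 0.735 points over 120, the neurotrophin gene *Bdnf* -0.320 and 0.548 points over 70, and *Nr2e1*, which encodes TLX, -1.11 and -0.0822 points over 65. The Wnt ligand genes had 0.161 and -1.48 points (*Wnt3*) and 0.143 and 1.92 points (*Wnt3a*). *Dlx2* had -2.69 and -0.418 points and *Rac3* -0.622 and -1.37 points. The pairs took opposite signs in 3 of these 8 genes (*Slit1*, *Bdnf* and *Wnt3*).

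Lists for other cells that the cultures could hold had few windows. Of 38 windows of glial genes, 1 was above (2.63%), in the myelin gene *Mbp* (18.04 and 6.36 points), and 1 below (2.63%), in a coding exon of *Sox10*, a gene of oligodendrocyte identity (-17.0 and -5.78 points), against 1.64% and 1.11% of the windows of all protein-coding genes. Of 38 windows of fibroblast and feeder cell genes, 0 were called. Among the genes of that list with at least 20 CpGs, the collagen gene *Col6a1* had the highest mean with 5.20 and 0.599 points over 27 CpGs, and *Twist2*, a mesenchymal transcription factor gene, the lowest with 0.538 and -4.21 points over 47. A contribution of other cells to the differences was not tested.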

How the data were processed

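Levels were read from deposited RRBS tables of 8 libraries, of which the 4 shTet3 libraries were analysed. Samples were grouped by their labels. Per the study's methods and the submitters' processing notes, the authors trimmed reads with Trim Galore in RRBS mode, aligned them with Bismark to mm9 and extracted calls for methylKit; versions and any merging of strands are not given in the sources used here. For each CpG the authors deposited a coverage, which is a raw count of calls, and 2 shares in percent, for C and for T. Methylated counts were coverage times percent, rounded to whole numbers, and every position was a CG of NCBIM37 (mm9). All tables listed the same CpGs, with a coverage of at least 5. PCR copies could not be removed, which makes counting tests too lenient.

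Levels were unweighted means over CpGs. CpGs, and windows of 1 kb with at least 3 CpGs, were tested by logistic regression of the counts on the kind of library (likelihood ratio test, Benjamini-Hochberg, q below 0.01 and a pooled difference over 10 points), and means by exact permutation. Python 3.11.15, numpy 2.4.6, scipy 1.17.1 and numba 0.67.0 were used, and the functions were tested on simulated data. Genes were those of GENCODE vM1. The numbers pair BS with oxBS because both came from one divided sample, per the labels, and the difference between replicates in BS correlated with that in oxBS (r = 0.246 across CpGs). The named sites were the 8 windows above and 4 below, and the 5 CpGs above and 3 below outside chromosome 18, with the largest pooled difference and the same sign in both pairs. In each gene list, genes with a called window were named, or those with the highest and lowest mean, besides *Tet3* and the genes the study names. *Pou5f1*, *Nes* and other markers were given by promoter level, and further genes of the methylation machinery were named after their values were seen. The members and lists were chosen with earlier results of these data known. Alternatives covered the coverage minimum, the test, the replicate block, the window and each library left out. Columns of other samples numbered 0.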

Additional observations from a re-analysis of the deposited data

Results flagged for a closer look

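For 15 of the values given above, both shTet3 pairs lay on one side of 0 and both shScr pairs on the other. The difference between the groups was not tested in any of them, and the CpGs and windows had been chosen for their difference in shTet3. Values whose shScr pairs both had the sign of the shTet3 pairs are not listed here. Examples are the windows of *Syp* (shScr pairs 7.98 and 13.9), *Igf2r* (10.2 and 5.37) and *Grb10* (17.2 and 7.95). Of windows called above and tested in shScr, both shScr pairs were negative in 20.98% and positive in 28.9%. For windows called below, the shares were 22.7% and 27.8%. Over all windows tested in both groups, they were 19.5% and 27.96%. The value given is the mean of the shTet3 pairs minus the mean of the shScr pairs, in percentage points.

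Among single CpGs it was 81.2 at the *Slc22a12* site and 51.4 at the *Zfp423* site, where BS was above oxBS in shTet3. It was -60.6 at the CpG in *4921517L17Rik* (nearest start site *Scand1*) and -72.0 at that in *Clmn*, where BS was below.

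Among windows it was 46.8 in *Pcdh15*, 32.7 in *Pnldc1* and -33.0 in the *Macf1* intron (nearest start site *Bmp8a*). In the gene lists it was 21.1 and 18.4 in the intronic windows of *Rbfox3*, -13.7 at *Slc17a7*, -14.1 in *Sox10* and -26.8 in the called window of *Tet3*.

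For gene means it was -4.32 in *Tet3*, where the shScr pairs were at 0.909 and 2.25 points. It was 1.25 in *Rbfox3* and 2.52 in *Tcl1*, the latter from 9 CpGs in shTet3 and 7 in shScr. The CpG sets of the groups also differed in *Tet3* (76 in shTet3, 71 in shScr) and *Rbfox3* (329 and 276).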

How the results depend on the processing

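The counts moved most with the error model and with the libraries used. Fisher's exact test called 85 CpGs above and 59 below, and the F test called 0 CpGs and 0 windows in either direction. The F test, with its few degrees of freedom, could hardly have called any over so many tests. Windows numbered 1908 above and 1284 below at a limit of 5 points, 2432 and 1533 by the q value alone, and 584 and 373 with at least 5 CpGs per window. Leaving out a pair or a library gave between 0 and 1737 CpGs above, between 0 and 1092 below, between 476 and 3102 windows above and between 314 and 2391 below. Pair 2 alone gave the CpG counts of 0 and windows of 476 and 314, and pair 1 alone 1025 and 795 CpGs and 2453 and 2086 windows. Without BS replicate 2 there were 1158 and 1092 CpGs and 2689 and 2391 windows, and without oxBS replicate 2 1737 and 1061 CpGs and 3102 and 2266 windows. Without oxBS replicate 1 there were 89 CpGs above and 155 below, the opposite order, and without BS replicate 1 207 and 52. The cause was not tested.

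With the replicate block 156 CpGs were called above and 84 below, and 1201 and 793 windows, and the sign-flip p of the mean was its smallest, 0.5 (exact permutation over pairs). Every count stayed within 1.5 times of its value. Coverage minimums of 5 and 20, removal of the deepest CpGs, shifted windows and windows of at least 1 CpG kept every count within 1.5 times of its value. The mean difference stayed positive, between 0.284 and 0.449 points, and between 0.281 and 0.334 with a pair left out, although read weighting turned pair 2 negative. The difference between shTet3 and shScr, whose omission of pairs was chosen after seeing the data, ranged from -0.170 to 0.0234 points.

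Coverage limits single CpGs, for which the counting error of 7.07 points far exceeds the mean. Oxidation efficiency was not analysed here.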

Other observations

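The small positive mean was spread over the genome. On each of the 20 chromosomes other than Y, BS minus oxBS was above 0 in both pairs, from 0.0697 points on chromosome 6 to 0.440 on chromosome 14 in pair 1, and from 0.238 points on chromosome 14 to 0.445 on chromosome 18 in pair 2. The order of the chromosomes thus differed between the pairs, with chromosome 14 highest in one and lowest in the other. The X chromosome, present once in these male cells, had 0.342 and 0.383 points over 11648 CpGs. On the Y chromosome only 103 CpGs were kept, with 2.98 and -0.188 points.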
